A study of Homo sapiens with 12 samples.

Results

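Autophagy and lysosome genes were followed in 2 cancer cell lines treated with an inhibitor of the TEAD transcription factors. The genes were 43 chosen by function, comprising the TFEB family of transcription factors, the autophagy machinery and lysosomal membrane proteins, enzymes and proton pump subunits. All 43 were found by symbol among the 27064 genes counted, and all 43 had enough reads to be tested. The choice of genes used no measured value, although it was made with earlier results of these data known.

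Poly(A) RNA was sequenced from NCI-H226 (H226), a pleural mesothelioma line, and ACHN, a kidney cancer line. The groups were H226 cells given SWTX-143, H226 cells given DMSO, ACHN cells given SWTX-143 and ACHN cells given DMSO, with 3 libraries in each. SWTX-143, an irreversible TEAD inhibitor, was used at 100 nM overnight, and DMSO was its vehicle. Both lines lack NF2 function per the submitters, so every group, vehicle included, shared that loss, and each tissue was represented by 1 line. NF2 encodes merlin, which activates the Hippo kinases that keep the TEAD coactivators YAP and TAZ out of the nucleus. Nothing in the labels tells whether replicates were separate cultures, so a p-value here sets a difference against the spread among 3 libraries, and that spread may be technical. In bulk RNA, fewer cells of a kind and less RNA per cell cannot be told apart.

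Autophagy encloses cytoplasm in a double membrane, the autophagosome, and delivers it to the lysosome, where acid hydrolases break it down. The ULK kinase complex and the beclin lipid kinase complex start the process, the ATG8-family proteins (LC3 and GABARAP) are attached to the growing membrane, and adaptors such as SQSTM1 carry cargo to them. TFEB, TFE3 and MITF are related transcription factors that enter the nucleus when lysosomal signalling by mTORC1 is low. They bind an extended E-box, the CLEAR element, near the start sites of many lysosomal genes.

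Promoter sequences are shown first because the CLEAR element is the feature that ties the TFEB family to the other genes. RefSeq promoter windows (GRCh38.p14, 250 bases before to 50 after the gene start, the first listed window of each gene) were matched by symbol for 36 of the 43 genes. LAMP2, CTSB, HEXA, ASAH1, PSAP, ATP6V1A and ATP6V1H had none in the table used. Of the 36 windows, 5 held the 8-letter CLEAR core TCACGTGA, and these 8 stretches cover all of its occurrences, read on the strand of the gene. Capitals mark the core, with 20 bases on each side. Where a g stands before it and a c after it, the full 10-letter CLEAR element is present, as in the second MCOLN1 stretch and both GAA stretches.
LAMP1, chr13:113297190-113297237, plus strand: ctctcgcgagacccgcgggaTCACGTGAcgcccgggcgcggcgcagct
LAMP1, chr13:113297217-113297264, plus strand: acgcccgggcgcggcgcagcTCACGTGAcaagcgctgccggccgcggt
MCOLN1, chr19:7522562-7522609, plus strand: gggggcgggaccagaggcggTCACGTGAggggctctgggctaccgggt
MCOLN1, chr19:7522589-7522636, plus strand: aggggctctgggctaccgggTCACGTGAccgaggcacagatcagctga
CTSA, chr20:45891289-45891336, plus strand: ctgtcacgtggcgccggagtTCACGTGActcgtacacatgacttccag
GAA, chr17:80101484-80101531, plus strand: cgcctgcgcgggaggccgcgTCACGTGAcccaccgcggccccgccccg
GAA, chr17:80101529-80101576, plus strand: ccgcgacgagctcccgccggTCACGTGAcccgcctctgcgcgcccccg
ATP6V0D1, chr16:67481190-67481237, minus strand: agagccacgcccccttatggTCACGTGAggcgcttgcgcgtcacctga
The 2 stretches of LAMP1 overlap each other, as do those of MCOLN1 and those of GAA.

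In these 5 windows the core lay near the gene start. The first base of the capitals lay 2 and 29 bases before the start in LAMP1, 15 and 42 in MCOLN1, 26 in CTSA, 32 and 77 in GAA and 60 in ATP6V0D1. The core TCACGTGA was present in 13.9% of the members' windows, against 1.04% of all 27305 genes with a window. The full element was present in 2 of the 36 windows (5.56%), against 0.381% of all genes. The shorter E-box CACGTG was present in 9 of the 36 (25%), against 7.43% of all genes. These 3 words are nested, and each reads the same on both strands, so every window with a longer word also counts for the shorter ones. GGAATG, the TEAD core, was searched on both strands, and no member's window held both it and an E-box. It was present in 7 of the 36 windows (19.4%), against 14% of all genes, namely those of MITF, GABARAPL2, ULK1, ATG13, BECN1, ATG7 and NPC2. Such a match is a description of the sequence and not of a bound site. The members were chosen by function and the CLEAR element is known from lysosomal genes, so its higher share among them is no result of these data.

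**Figure D1:**
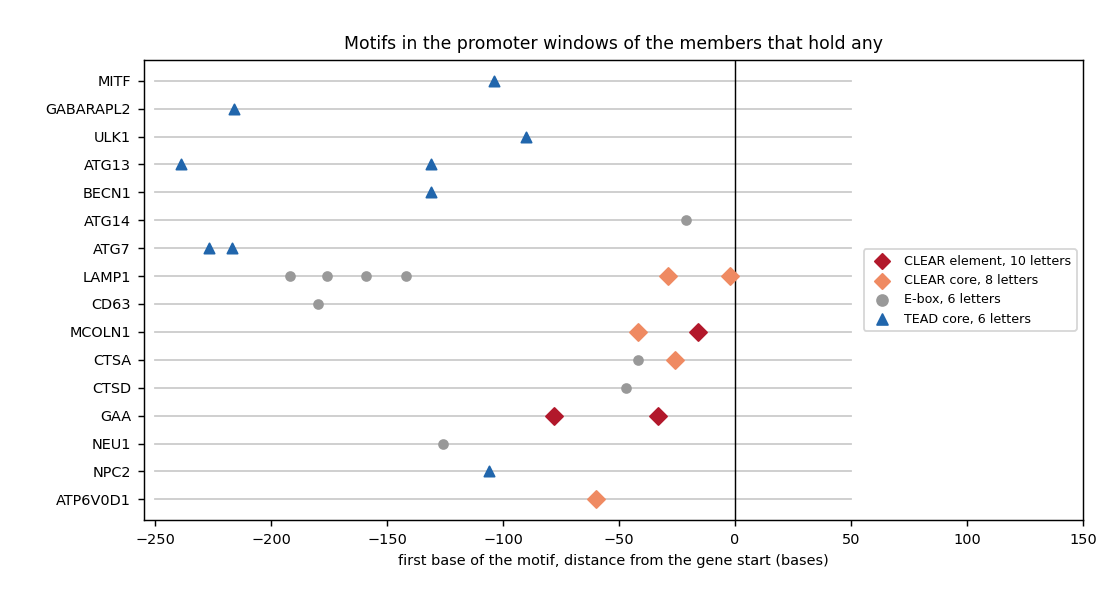
Positions of 4 sequence words in the promoter windows of the members that hold any, drawn as distance in bases of the word's first base from the gene start (vertical line), with the 300-base window as a grey line. The CLEAR words (diamonds) lie close before the start in LAMP1, MCOLN1, CTSA, GAA and ATP6V0D1, and the TEAD core (triangles) lies further upstream in 7 other genes.

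The libraries were of even depth, with 9690980 to 11262663 reads on genes in H226 and 10113810 to 11206457 in ACHN. The inhibitor check genes CTGF, CYR61, ANKRD1 and AMOTL2, which are established TEAD targets, were lower with SWTX-143 in both lines. CTGF, for example, had 13.2 ± 1.18 CPM (the count scaled to library size) with SWTX-143 and 76.1 ± 7.11 CPM with DMSO in H226, and 22.0 ± 2.09 and 115 ± 1.68 CPM in the same order in ACHN (SD, n = 3). Markers of the labelled tissues were found where the labels put them: the mesothelial genes CALB2 and WT1 in H226, with WT1 at 0 in ACHN, and the kidney genes PAX8 and PAX2 in ACHN, where EMX2 was at 0 in every library. The marker lists moved with treatment. The 8 mesothelial markers summed to 3887 to 4129 CPM with SWTX-143 and 3416 to 3597 CPM with DMSO in H226, and to 158 to 168 and 194 to 197 CPM in the same order in ACHN. The 7 kidney markers summed to 99.6 to 107 CPM with SWTX-143 and 122 to 129 CPM with DMSO in H226, and to 776 to 839 and 768 to 801 CPM in the same order in ACHN. Their part in the results was not tested. Of 5 fibroblast genes COL1A1 had 1115 CPM with SWTX-143 and 1060.1 CPM with DMSO in H226, and PDGFRA, DCN, LUM and COL1A2 were at or near 0 in both lines. CDH6 ran against the kidney list, with 116 CPM in H226 DMSO cells and 0.224 CPM in ACHN DMSO cells. Replicate 3 of H226 with SWTX-143 stood somewhat apart, with a chi-square per degree of freedom of 2.98 and 3.27 against its 2 companions, which differed from each other by 1.41. The other pairs ran from 1.34 to 2.78.

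With SWTX-143, 25 of the 43 genes rose and 2 fell in H226, and 17 rose in ACHN. In H226 19.0% of all 13484 genes tested were called higher, 21.6% lower and 40.7% in either direction, so 58.1% of members called higher stood against 19.0% of all genes. In ACHN the background was 8.43% higher, 9.37% lower and 17.8% in either direction of 13483 genes, and 39.5% of the members were called higher. No member was called lower in ACHN by edgeR's quasi-likelihood test, none was lower at an unadjusted p under 0.05, and DESeq2 called none lower. A call is an adjusted p below 0.05 in edgeR's quasi-likelihood test with Benjamini-Hochberg adjustment over all tested genes of the line. The shifts were small: the median log2 fold change of the 43 genes was 0.18 in H226 and 0.10 in ACHN, while the median of all tested genes was -0.0011 in H226 and 0.0013 in ACHN.

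Of the 43, 15 rose in both lines: SQSTM1, GABARAP, GABARAPL1, MAP1LC3B, LAMP2, SCARB2, CD63, CD68, CTSA, CTSB, CTSD, TPP1, NEU1, ASAH1 and PSAP. A further 10 were called higher in H226 and not called in ACHN, namely TFEB, GABARAPL2, ULK1, ATG13, BECN1, ATG14, GAA, HEXA, NPC2 and ATP6V1A. ATG2A and LIPA were called higher in ACHN and not called in H226. TFE3 and ULK2 fell in H226 and were not called in ACHN, and 14 genes were called in neither line. As a share of all reads on genes, the 43 members together took 0.80% to 0.838% with SWTX-143 and 0.672% to 0.685% with DMSO in H226. In ACHN they took 0.597% to 0.615% with SWTX-143 and 0.532% to 0.541% with DMSO, so the groups did not overlap in either line. Genes with many reads weigh most in such a share. In H226 the 43 summed to 8112 CPM with SWTX-143 and 6868 CPM with DMSO. SQSTM1 had 1557 and 1123 CPM of this and PSAP 1459 and 1242 CPM, in the same order. In ACHN the sums were 6029 and 5412 CPM, with SQSTM1 at 689 and 570 CPM and PSAP at 1117 and 926 CPM. Without replicate 3 of H226 with SWTX-143 the H226 counts were 26 higher and 2 lower, with a median of 0.22. Of all 13616 genes tested in that fit, 2539 were higher and 2826 lower. The balance of calls over all genes moved with the scaling. It was 2567 higher and 2919 lower in H226, against 3283 and 2324 under upper-quartile scaling, which called 29 members higher and 2 lower. In ACHN it was 1137 higher and 1264 lower, against 1537 and 977 by library size alone, which called 19 members higher and 0 lower.

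**Figure D2:**
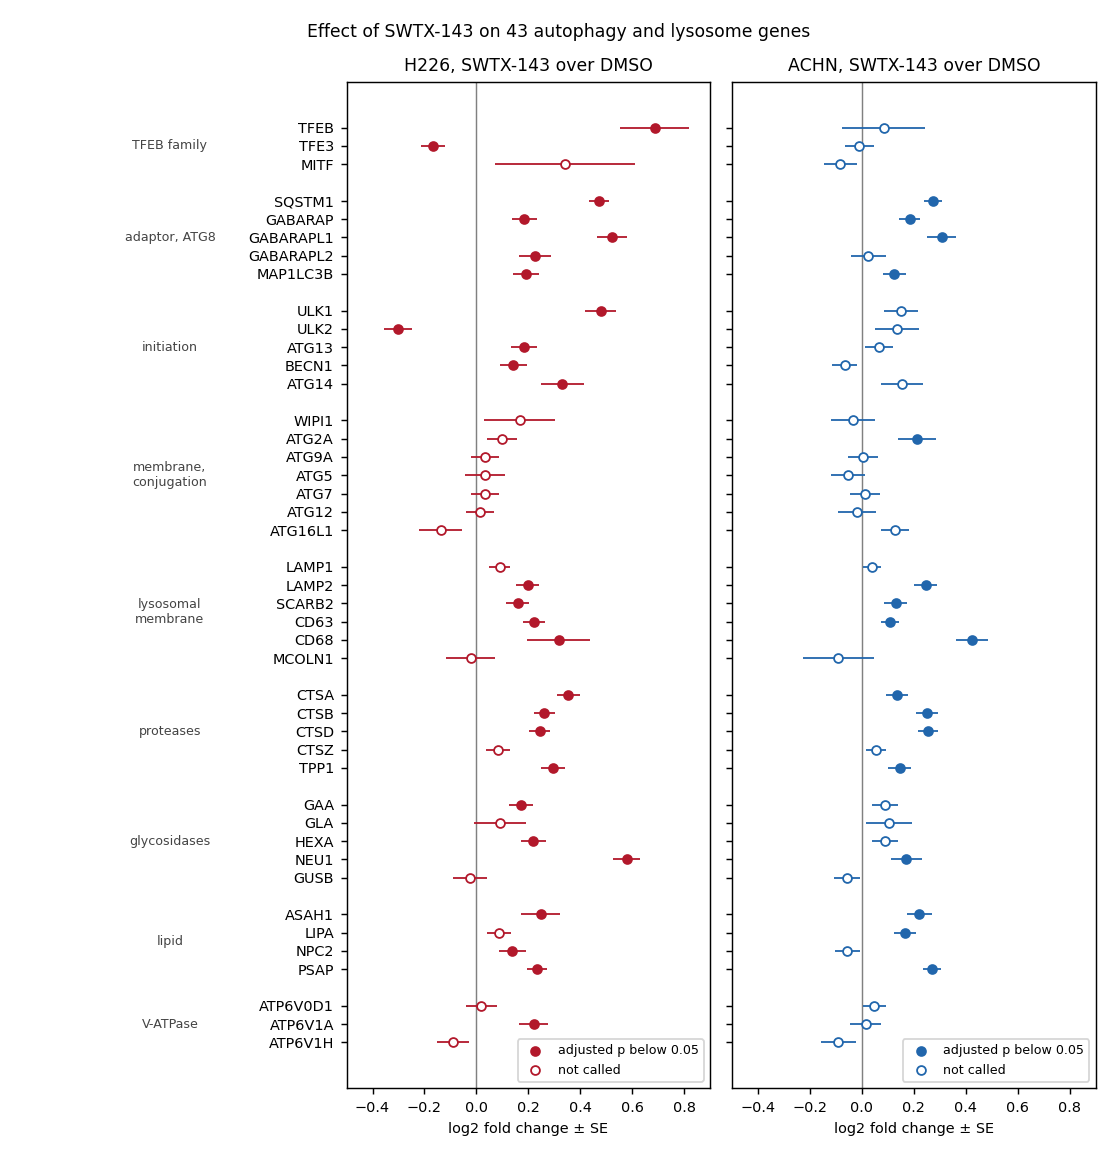
Log2 fold change of each of the 43 genes, SWTX-143 over DMSO, in H226 (left) and ACHN (right), with SE bars, grouped by role. Filled points passed an adjusted p of 0.05. In H226 25 filled points lie above 0 and TFE3 and ULK2 lie below it, while in ACHN all 17 filled points lie above 0.

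Among the 3 transcription factors, TFEB rose in H226, TFE3 fell there, and MITF was not called. TFEB, the factor most closely tied to lysosome formation, had 12.3, 10.2 and 9.91 CPM in H226 with SWTX-143, against 7.10, 5.80 and 7.25 CPM with DMSO. The groups did not overlap, and TFEB was 60.9% higher (log2 0.69 ± 0.13 SE, adjusted p = 3.06e-05 in edgeR's quasi-likelihood test). TFEB is a low gene here, resting on 111 to 132 reads with SWTX-143 and 64 to 79 reads with DMSO in H226. In ACHN TFEB had 7.79, 5.79 and 5.71 CPM with SWTX-143 and 5.44, 5.52 and 7.26 CPM with DMSO, groups that overlapped (log2 0.08 ± 0.16, adjusted p = 0.787). TFE3, a relative with overlapping targets, had 119.6, 119.9 and 124 CPM in H226 with SWTX-143, against 134, 133 and 142 CPM with DMSO. All 3 SWTX-143 libraries were lower, and TFE3 fell by 10.9% (log2 -0.17 ± 0.05, adjusted p = 0.00319 in edgeR's quasi-likelihood test). In ACHN its log2 fold change was -0.01 ± 0.06. MITF, best known from the melanocyte lineage, was nearly absent from H226, at 2.29 ± 0.560 CPM with SWTX-143 and 1.80 ± 0.533 CPM with DMSO (SD, n = 3). In ACHN MITF had 47.7 ± 3.29 CPM with SWTX-143 and 50.4 ± 3.97 CPM with DMSO. Its groups overlapped in both lines.

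All 5 cargo adaptor and ATG8-family genes rose in H226, and 4 of the 5 rose in ACHN. SQSTM1, also called p62, binds ubiquitinated cargo and is itself degraded by autophagy. It had 1517, 1604 and 1551 CPM in H226 with SWTX-143, against 1082, 1143 and 1146 CPM with DMSO. In ACHN SQSTM1 had 699, 699.8 and 669.5 CPM with SWTX-143, against 569.6, 563 and 577 CPM with DMSO. The groups were well separated in both lines. SQSTM1 was 38.6% higher in H226 (log2 0.47 ± 0.04, adjusted p = 1.66e-15) and 21.0% higher in ACHN (log2 0.28 ± 0.03, adjusted p = 8.76e-09), by edgeR's quasi-likelihood test. Of its exon bases 1.37% overlap MGAT4B on the other strand, and how the counting treated strand is not given in the sources used here.

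GABARAPL1, the ATG8-family gene that moved furthest, had 73.4, 70.8 and 68.0 CPM in H226 with SWTX-143, against 47.6, 51.9 and 48.1 CPM with DMSO. In ACHN GABARAPL1 had 74.0, 72.9 and 79.0 CPM with SWTX-143, against 58.4, 59.6 and 64.5 CPM with DMSO. No library of one treatment reached those of the other in either line. The log2 fold change of GABARAPL1 was 0.52 ± 0.06 in H226 (adjusted p = 6.74e-11) and 0.31 ± 0.06 in ACHN (adjusted p = 3.06e-05), by edgeR's quasi-likelihood test. GABARAP rose in both lines, with log2 fold changes of 0.18 ± 0.05 in H226 and 0.18 ± 0.04 in ACHN. MAP1LC3B, which encodes the LC3 protein used to stain autophagosomes, rose by 0.19 ± 0.05 in H226 and by 0.13 ± 0.04 in ACHN. The ACHN call of MAP1LC3B was lost in 6 of 14 alternatives. By the same test it was lost without SWTX-143 replicate 1 (adjusted p = 0.15) or 2 (0.162) and without DMSO replicate 2 (0.211) or 3 (0.0636). With the replicate number as a block that test did not call it (0.0686), and DESeq2 did not make the call (0.149). GABARAPL2 rose in H226 (0.22 ± 0.06) and had a log2 fold change of 0.03 ± 0.07 in ACHN. The near-identical copies GABARAPL3 and MAP1LC3B2 held at most 5 and 30 reads over all libraries of a line, so few reads were counted under them.

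The 5 initiation genes split in H226: ULK1, ATG13, BECN1 and ATG14 rose and ULK2 fell. In ACHN none was called by edgeR's quasi-likelihood test, with 1 higher and 0 lower at an unadjusted p under 0.05 and none called by DESeq2. ULK1, the kinase that starts autophagy, had 61.9, 58.9 and 63.6 CPM in H226 with SWTX-143, against 44.8, 41.2 and 46.5 CPM with DMSO. It was 39.3% higher (log2 0.48 ± 0.06, adjusted p = 3.23e-09), with the groups apart. In ACHN ULK1 had 53.0, 45.7 and 53.6 CPM with SWTX-143, against 45.3, 43.4 and 48.5 CPM with DMSO, and the groups overlapped (log2 0.15 ± 0.06, adjusted p = 0.104). Without ACHN SWTX-143 replicate 2, the lowest of its group, ULK1 was called in ACHN (log2 0.22, adjusted p = 0.0171 in edgeR's quasi-likelihood test), as it was by library size alone (0.18, adjusted p = 0.0473). ULK2, its close relative, ran the other way in H226, with 64.0, 61.1 and 59.8 CPM with SWTX-143, against 78.9, 74.6 and 74.4 CPM with DMSO. It fell by 18.9% (log2 -0.30 ± 0.05, adjusted p = 8.14e-06 in edgeR's quasi-likelihood test). In ACHN ULK2 had 25.2, 22.8 and 24.3 CPM with SWTX-143, against 20.4, 20.8 and 24.6 CPM with DMSO, which overlapped (log2 0.13 ± 0.09).

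The partners of these kinases follow. ATG14, which directs the beclin complex to autophagosome formation, rose by 0.33 ± 0.08 on the log2 scale in H226, and ATG13, a scaffold of the ULK complex, by 0.18 ± 0.05. BECN1 had 81.8, 77.8 and 76.4 CPM in H226 with SWTX-143, against 72.6, 71.8 and 69.2 CPM with DMSO. The groups did not overlap, yet the rise of BECN1 was small (log2 0.14 ± 0.05, adjusted p = 0.0271 in edgeR's quasi-likelihood test). Its call was lost without SWTX-143 replicate 1 (adjusted p = 0.143) and without DMSO replicate 2 (0.06) or 3 (0.113), by the same test, and DESeq2 did not make it (0.111). BECN1 shares 12.4% of its exon bases with CNTD1 and 4.68% with PSME3 on the other strand, and PSME3 held 10369 reads in H226, against 4879 for BECN1.

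The 7 genes of membrane supply and conjugation were not called in H226. None passed in edgeR's quasi-likelihood test, none was past an unadjusted p under 0.05, DESeq2 called none, and their median log2 fold change was 0.03. ATG7, the activating enzyme of the conjugation system, had 83.4 ± 3.86 CPM with SWTX-143 and 81.5 ± 2.54 CPM with DMSO in H226 (SD, n = 3). ATG5 had 29.6 ± 2.77 and 28.9 ± 1.40 CPM in the same order, ATG12 70.8 ± 0.743 and 70.0 ± 3.29 CPM, and ATG9A, a lipid scramblase on vesicles, 80.1 ± 1.69 and 78.4 ± 4.48 CPM. Each of these differences was smaller than the SD of at least 1 of its groups. In ACHN the log2 fold changes of ATG5, ATG7, ATG9A and ATG12 ran from -0.05 to 0.01. WIPI1, which reads the lipid made by the beclin complex, was at 0.17 ± 0.14 in H226 and -0.03 ± 0.09 in ACHN, and 24.3% of its exon bases overlap ARSG. ATG7 shares 18.1% of its exon bases with VGLL4 on the other strand, which held 7102 reads in H226, against 5361 for ATG7.

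ATG2A, a lipid transfer protein, was the exception among them in ACHN. It had 38.4, 33.8 and 34.6 CPM with SWTX-143, against 29.7, 31.8 and 30.9 CPM with DMSO, with the groups apart (log2 0.21 ± 0.07, adjusted p = 0.0340 in edgeR's quasi-likelihood test). The call of ATG2A was lost without SWTX-143 replicate 1 (adjusted p = 0.223) and without DMSO replicate 1 (0.108) or 3 (0.0886), by that test. With the replicate number as a block the same test did not call it (0.0514), and DESeq2 did not make the call (0.183). In H226 ATG2A was at 0.10 ± 0.06, and upper-quartile scaling (adjusted p = 0.0327) and library size alone (0.0450) called it higher there in edgeR's quasi-likelihood test. ATG16L1, which places the conjugation machinery on the membrane, had 20.1, 22.3 and 23.7 CPM in H226 with SWTX-143, against 24.2, 24.9 and 23.7 CPM with DMSO. In ACHN ATG16L1 had 72.7, 70.6 and 72.4 CPM with SWTX-143, against 65.9, 66.4 and 65.3 CPM with DMSO. The 2 lines leaned in opposite directions, but neither line's change was called for ATG16L1 (log2 -0.14 ± 0.08, adjusted p = 0.184 in H226 and 0.13 ± 0.05, adjusted p = 0.0912 in ACHN, edgeR's quasi-likelihood test). Upper-quartile scaling (adjusted p = 0.0384) and library size alone (0.0314) called ATG16L1 higher in ACHN by that test.

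Of the 6 lysosomal membrane genes, the same 4 rose in both lines: LAMP2, SCARB2, CD63 and CD68. LAMP2, an abundant glycoprotein of the lysosomal membrane with a role in chaperone-mediated autophagy, had 251, 246 and 233 CPM in H226 with SWTX-143, against 214, 216 and 207 CPM with DMSO. In ACHN LAMP2 had 161, 157 and 169 CPM with SWTX-143, against 145, 130.3 and 136 CPM with DMSO. Every SWTX-143 library lay above every DMSO library of its line, with LAMP2 at log2 0.20 ± 0.04 in H226 (adjusted p = 1.49e-04) and 0.25 ± 0.04 in ACHN (adjusted p = 2.75e-05), by edgeR's quasi-likelihood test. Its companion LAMP1 did not pass in either line, at 0.09 ± 0.04 in H226 (adjusted p = 0.0652) and 0.04 ± 0.04 in ACHN (adjusted p = 0.513). In 6 of 14 alternatives LAMP1 was called higher in H226. It was so without H226 SWTX-143 replicate 3 (log2 0.11, adjusted p = 0.016 in edgeR's quasi-likelihood test) and under upper-quartile scaling (0.14, adjusted p = 0.00371). By the same test it was also called under RLE (adjusted p = 0.0499) and library-size scaling (0.00432). The others were with genes averaging under 5 CPM removed (0.0187) and with the replicate number as a block (0.0417). Both promoter stretches of LAMP1 printed above hold the CLEAR core.

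SCARB2, the receptor that carries glucocerebrosidase to the lysosome, rose by 0.16 ± 0.04 in H226 and 0.13 ± 0.04 in ACHN on the log2 scale. CD63, a tetraspanin of late endosomes, rose by 0.22 ± 0.04 in H226 and by 0.11 ± 0.04 in ACHN. Neither ACHN call held in every alternative. That of SCARB2 was lost without SWTX-143 replicate 1 (adjusted p = 0.0757) or 3 (0.056) and without DMSO replicate 2 (0.135) or 3 (0.126), and DESeq2 did not make it (0.0977). That of CD63 was lost without SWTX-143 replicate 1 (0.0519) or 2 (0.156) and without DMSO replicate 3 (0.15), all by edgeR's quasi-likelihood test. With the replicate number as a block, that test called neither SCARB2 (adjusted p = 0.0540) nor CD63 (0.0807) in ACHN. MCOLN1, the lysosomal calcium channel whose window holds both CLEAR words, had 17.0 ± 0.941 CPM with SWTX-143 and 17.3 ± 0.497 CPM with DMSO in H226. In ACHN MCOLN1 had 8.27 ± 1.44 and 8.86 ± 0.540 CPM in the same order, and it was called in neither line.

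CD68, a lysosomal glycoprotein best known as a macrophage marker, had 61.2, 67.9 and 59.2 CPM in ACHN with SWTX-143, against 44.7, 47.9 and 47.6 CPM with DMSO. It was 34.1% higher there (log2 0.42 ± 0.06, adjusted p = 2.65e-07), with the groups apart. In H226 CD68 was low, at 9.98, 12.4 and 12.8 CPM with SWTX-143, against 8.53, 9.43 and 10.4 CPM with DMSO, and the groups overlapped (log2 0.32 ± 0.12, adjusted p = 0.0329 in edgeR's quasi-likelihood test). That H226 call was lost without SWTX-143 replicate 2 or 3 (adjusted p = 0.119 for each) and without DMSO replicate 1 (0.153) or 2 (0.0671), by the same test, and DESeq2 did not make it (0.178). Of 10 leukocyte markers, PTPRC, CD163, TYROBP and AIF1 were at 0 in all 12 libraries, and after CD74 the highest was ITGAM, at 6.77 CPM with SWTX-143 and 6.17 CPM with DMSO in ACHN. The 10 markers summed to 35.2 to 37.2 CPM with SWTX-143 and 26.2 to 29.5 CPM with DMSO in H226, and to 157 to 161 and 131 to 137 CPM in the same order in ACHN, nearly all of it CD74 in ACHN. CD74, the MHC class II invariant chain, which also passes through lysosomes, was called higher in both lines (log2 0.31 in H226, 0.24 in ACHN). The part of these markers in the CD68 result was not tested.

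**Figure D3:**
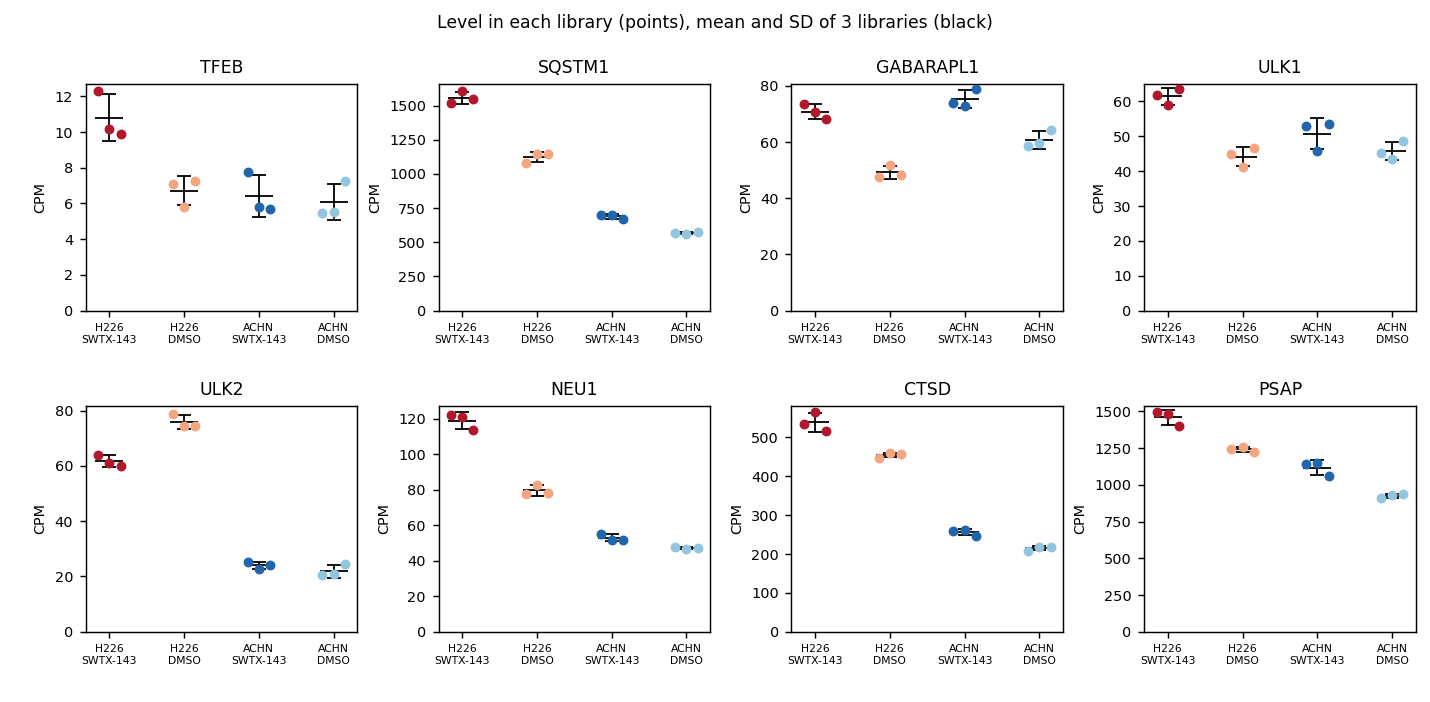
Level in CPM of 8 members in each of the 12 libraries (points), with the mean and SD of each group of 3 (black), for H226 and ACHN with SWTX-143 and with DMSO. The SWTX-143 points lie above the DMSO points of their line in SQSTM1, GABARAPL1, NEU1, CTSD and PSAP, TFEB and ULK1 separate in H226, and ULK2 runs the other way in H226, at 61.6 CPM with SWTX-143 against 75.9 CPM with DMSO.

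Of the 5 lysosomal protease genes, CTSA, CTSB, CTSD and TPP1 rose in both lines. CTSD, the main aspartic protease of the lysosome, had 534, 564 and 518 CPM in H226 with SWTX-143, against 448, 459 and 457 CPM with DMSO. In ACHN CTSD had 260.2, 262 and 248 CPM with SWTX-143, against 209, 219 and 217 CPM with DMSO. The groups were apart in both lines, with CTSD at log2 0.24 ± 0.04 in H226 (adjusted p = 1.17e-06) and 0.25 ± 0.04 in ACHN (adjusted p = 1.01e-06), by edgeR's quasi-likelihood test. CTSB, a cysteine protease, had 476, 465 and 437 CPM in H226 with SWTX-143, against 379, 392 and 378 CPM with DMSO. In ACHN CTSB had 185, 176 and 172 CPM with SWTX-143, against 152, 146 and 150.2 CPM with DMSO. Here too the groups were apart, with CTSB at log2 0.26 ± 0.04 in H226 and 0.25 ± 0.04 in ACHN.

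CTSA encodes the protective protein that holds the sialidase NEU1 and beta-galactosidase in a stable complex. It had 199, 210.1 and 195 CPM in H226 with SWTX-143, against 155, 158 and 160.1 CPM with DMSO. In ACHN CTSA had 172, 168 and 176 CPM with SWTX-143, against 154, 158 and 158 CPM with DMSO. CTSA was 27.7% higher in H226 (log2 0.35 ± 0.04, adjusted p = 1.92e-09) and 9.81% higher in ACHN (log2 0.13 ± 0.04, adjusted p = 0.0141), by edgeR's quasi-likelihood test, and the ACHN call was lost without SWTX-143 replicate 3 (adjusted p = 0.057). Its exons overlap those of NEURL2 (17.7% of bases), which held 70 reads in H226 against 11709 for CTSA, and of PLTP (3.42%), both on the other strand. PLTP held 1502 reads in H226, and in ACHN 9016 against 10457 for CTSA. TPP1, a tripeptidyl peptidase, rose by 0.29 ± 0.04 in H226 and 0.15 ± 0.04 in ACHN, and its ACHN call was lost without DMSO replicate 1 (adjusted p = 0.0627 in edgeR's quasi-likelihood test) and with DESeq2 (0.0652). CTSZ, a carboxypeptidase, was called in neither line (0.08 ± 0.05 in H226 and 0.05 ± 0.04 in ACHN), but upper-quartile scaling (adjusted p = 0.0164) and library size alone (0.0226) called it higher in H226 in edgeR's quasi-likelihood test.

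The 5 glycosidases differed more among themselves. NEU1, the lysosomal sialidase and the partner of CTSA, had 122, 121 and 114 CPM in H226 with SWTX-143, against 77.7, 82.9 and 78.4 CPM with DMSO. In ACHN NEU1 had 55.2, 52.0 and 52.0 CPM with SWTX-143, against 47.8, 46.7 and 47.0 CPM with DMSO. NEU1 was 49.3% higher in H226 (log2 0.58 ± 0.05, adjusted p = 3.87e-14) and 12.6% higher in ACHN (log2 0.17 ± 0.06, adjusted p = 0.0381), by edgeR's quasi-likelihood test. The ACHN call of NEU1 was lost in 6 of 14 alternatives, although the groups did not overlap. By the same test it was lost without SWTX-143 replicate 1 (adjusted p = 0.161) and without DMSO replicate 1 (0.0528), 2 (0.101) or 3 (0.114). With the replicate number as a block that test did not call it (0.0634), and DESeq2 did not make the call (0.179). HEXA, a subunit of beta-hexosaminidase, and GAA, which digests glycogen, rose in H226 (0.22 ± 0.05 and 0.17 ± 0.05) and were both at 0.09 ± 0.05 in ACHN, not called. GLA and GUSB were called in neither line, with GLA at 0.09 ± 0.10 in H226 and 0.10 ± 0.09 in ACHN, and GUSB at -0.02 ± 0.06 and -0.06 ± 0.05 in the same order.

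Of the 4 genes of lysosomal lipid handling, PSAP and ASAH1 rose in both lines. PSAP encodes the precursor of the saposins, which present lipids to the lysosomal hydrolases. It had 1493, 1483 and 1402 CPM in H226 with SWTX-143, against 1243, 1259 and 1223 CPM with DMSO. In ACHN PSAP had 1144, 1147 and 1059.9 CPM with SWTX-143, against 912, 927 and 939.9 CPM with DMSO. The groups were apart in both lines, with PSAP at log2 0.23 ± 0.04 in H226 (adjusted p = 9.32e-07) and 0.27 ± 0.03 in ACHN (adjusted p = 1.66e-08), by edgeR's quasi-likelihood test. ASAH1, acid ceramidase, rose by 0.25 ± 0.08 in H226 and by 0.22 ± 0.05 in ACHN, and DESeq2 did not call it in H226 (adjusted p = 0.0608). LIPA, lysosomal acid lipase, had 155, 158 and 157 CPM in ACHN with SWTX-143, against 141, 139 and 139.9 CPM with DMSO, a called rise (0.17 ± 0.04, adjusted p = 0.00265 in edgeR's quasi-likelihood test). In H226 LIPA was at 0.09 ± 0.05 and was called there without SWTX-143 replicate 3 (log2 0.14, adjusted p = 0.0108 by the same test), under upper-quartile scaling (0.0169) and by library size alone (0.0236). NPC2, a cholesterol carrier, was called in H226 (0.14 ± 0.05, adjusted p = 0.0316 in edgeR's quasi-likelihood test) with overlapping groups. That call of NPC2 was lost without SWTX-143 replicate 1 (adjusted p = 0.251) or 2 (0.0894) and without DMSO replicate 1 (0.144) or 3 (0.0794), and DESeq2 did not make it (0.123).

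Of the 3 V-ATPase subunits, which acidify the lysosome, ATP6V1A rose in H226 and none was called in ACHN by edgeR's quasi-likelihood test, by DESeq2 or at an unadjusted p under 0.05. ATP6V1A, the catalytic subunit, had 121, 109 and 98.6 CPM in H226 with SWTX-143, against 93.9, 95.1 and 93.1 CPM with DMSO (log2 0.22 ± 0.06, adjusted p = 0.00140 in edgeR's quasi-likelihood test). Its SWTX-143 libraries were spread widely, and replicate 3 was the nearest to DMSO. ATP6V0D1, whose window holds the CLEAR core, was at 0.02 ± 0.06 in H226 and 0.05 ± 0.04 in ACHN, and ATP6V1H at -0.09 ± 0.06 and -0.09 ± 0.07 in the same order.

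Set beside the promoter words, the called genes that had a window held the CLEAR core no more often than the others. In H226 it was present in 2 of the 19 windows of genes called higher (10.5%) and in 3 of the 17 of genes not called higher (17.6%). Of the 5 genes with printed stretches, CTSA and GAA rose in H226, while LAMP1, MCOLN1 and ATP6V0D1 were not called. LAMP1 was near the limit and was called higher in H226 in 6 of 14 alternatives. CTSA alone of the 5 was called in ACHN. The shorter E-box was present in 6 of the 19 windows of genes called higher in H226 and in 3 of the 17 others. In ACHN the E-box was present in 4 of the 13 windows of genes called higher and in 5 of the 23 others. GGAATG was present in 5 of the 19 and 2 of the 17 in H226, and in 0 of the 13 windows of genes called higher in ACHN and 7 of the 23 others. These counts are small and were not tested. They leave out LAMP2, CTSB, HEXA, ASAH1, PSAP and ATP6V1A, which were called higher in H226 but had no window.

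The difference between the lines was tested in 1 fit of all 12 libraries, as the H226 effect minus the ACHN effect. Of the 43 genes 6 had a more positive effect in H226 (14%) and 2 a more negative one (4.65%), so 18.6% were called in either direction. Of all 14664 genes tested 5.89% were more positive, 9.70% more negative and 15.6% either. Over all genes the 863 more positive and 1423 more negative calls became 1159 and 1045 under upper-quartile scaling. NEU1 differed by 0.40 ± 0.08 (adjusted p = 5.72e-05), SQSTM1 by 0.19 ± 0.05 (0.00723), CTSA by 0.21 ± 0.06 (0.00953) and ULK1 by 0.32 ± 0.09 (0.00678), by edgeR's quasi-likelihood test. TFEB (0.60 ± 0.21, adjusted p = 0.0404) and BECN1 (0.20 ± 0.07, 0.0491) were close to the limit by the same test. ULK2 was more negative in H226 by -0.44 ± 0.10 (adjusted p = 5.75e-04) and ATG16L1 by -0.27 ± 0.10 (0.0417).

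These 8 calls were not equally firm. NEU1, SQSTM1, CTSA and ULK2 passed in each of 20 alternative fits, ULK1 lost its call without ACHN SWTX-143 replicate 2 (adjusted p = 0.0505 in edgeR's quasi-likelihood test), and ATG16L1 lost it when any of the 12 libraries was left out. ATG16L1 also lost it under RLE (0.0725), upper-quartile (0.102) and library-size scaling (0.0603), without a filter (0.124), with genes averaging under 5 CPM removed (0.0963) and with DESeq2 (0.153). TFEB lost its call without H226 SWTX-143 replicate 1 (0.104), H226 DMSO replicate 2 (0.0996), ACHN SWTX-143 replicate 2 (0.104) or 3 (0.114) or ACHN DMSO replicate 3 (0.225), and with DESeq2 (0.134) or non-robust dispersion (0.0541). BECN1 lost its call without H226 SWTX-143 replicate 1 (0.0672), H226 DMSO replicate 3 (0.058), ACHN SWTX-143 replicate 1 (0.115) or 3 (0.0897) or ACHN DMSO replicate 1 (0.0834) or 3 (0.136), and with DESeq2 (0.0732) or non-robust dispersion (0.0527). Without H226 SWTX-143 replicate 3, 12 members had a more positive effect in H226 and 1 a more negative one. Of all 14808 genes tested in that fit, 1140 were more positive and 971 more negative. The 6 members added were GABARAPL1, GABARAPL2, CD63, HEXA, NPC2 and ATP6V1A, the last with a difference of 0.32 (adjusted p = 0.00178 in edgeR's quasi-likelihood test). Most did not depend on that library alone. Of the 20 alternatives, GABARAPL1 was called in 9, NPC2 in 8, ATP6V1A in 4, CD63 in 3, GABARAPL2 in 2 and HEXA in 1. TPP1, not among the 6, was called in 3. For the other 35 members a difference was not called, which does not show that the lines responded alike.

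Between the DMSO cells of the lines the members differed about as often as all genes did, but more of them were higher in H226. In H226 DMSO cells 25 of the 43 were higher than in ACHN DMSO cells (58.1%) and 12 were lower (27.9%). In either direction 86% were called, against 84.4% of all genes (42.2% higher and 42.2% lower). The median log2 value was 0.29 for the members and 0.0044 for all genes. Line and handling cannot be told apart here. CPM was scaled within each line and the log2 values come from the joint fit, so the CPM ratio need not match the log2. MITF differed most, at 1.80 ± 0.533 CPM in H226 and 50.4 ± 3.97 CPM in ACHN (log2 -4.65 ± 0.13). CD68 was also lower in H226, at 9.45 ± 0.935 CPM against 46.7 ± 1.82 CPM in ACHN (log2 -2.16 ± 0.09), as were ASAH1 (log2 -1.49 ± 0.06), WIPI1 (-1.48 ± 0.11) and ATG16L1 (-1.28 ± 0.07). ULK2 was higher in H226, at 75.9 ± 2.52 CPM against 21.9 ± 2.34 CPM in ACHN (log2 1.94 ± 0.07), followed by CTSB (1.51 ± 0.04), TFE3 (1.25 ± 0.05) and CTSD (1.23 ± 0.04). TFEB was not called between the lines, at 6.72 ± 0.796 CPM in H226 and 6.07 ± 1.03 CPM in ACHN (log2 0.29 ± 0.16). It was called without ACHN DMSO replicate 3 (log2 0.44, adjusted p = 0.0199 in edgeR's quasi-likelihood test) and without H226 DMSO replicate 2 (0.39, adjusted p = 0.0321). LAMP1 (0.07 ± 0.04) and ULK1 (0.10 ± 0.07) were not called either. ULK1 was called higher in H226 without H226 DMSO replicate 2 (log2 0.15, adjusted p = 0.0488 in edgeR's quasi-likelihood test). LAMP1 was called higher there without H226 SWTX-143 replicate 3 (0.08, adjusted p = 0.0464) and lower when libraries were scaled by size alone (log2 -0.0927).

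To compare genes with each other, CPM was divided by transcript length in kilobases, giving RPKM. Like CPM, it was scaled within each line, so it compares genes within a line and not the lines. CD63 with DMSO had lower RPKM in H226 than in ACHN, yet the joint fit called it higher in H226 (log2 0.09 ± 0.04). That call was lost in several alternatives, such as upper-quartile scaling (adjusted p = 0.0537 in edgeR's quasi-likelihood test). SQSTM1 was the highest member in H226, at 785 ± 22.1 RPKM with SWTX-143 and 566 ± 18.2 RPKM with DMSO, ahead of CD63 (546 ± 19.4 and 469 ± 15.1 RPKM) and PSAP (516 ± 17.7 and 439 ± 6.35 RPKM) in the same order. In ACHN CD63 led at 527 ± 15.4 RPKM with SWTX-143 and 489 ± 5.94 RPKM with DMSO, above PSAP (395 ± 17.5 and 327 ± 4.96 RPKM) and SQSTM1 (348 ± 8.70 and 287 ± 3.59 RPKM). TFEB, at the low end of the order in both lines, was at 4.78 ± 0.584 RPKM with SWTX-143 and 2.97 ± 0.352 RPKM with DMSO in H226, while TFE3 was at 35.5 ± 0.693 and 39.8 ± 1.42 RPKM. TFE3 was thus the family member with the most RNA in H226, and in ACHN TFE3 (18.6 ± 0.905 RPKM with DMSO) and MITF (15.3 ± 1.21 RPKM) were near each other. Among the ATG8 genes GABARAP was the highest in both lines, at 216 ± 13.5 RPKM with SWTX-143 and 189.7 ± 8.43 RPKM with DMSO in H226, and at 210.2 ± 3.37 and 185 ± 2.33 RPKM in ACHN.

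**Figure D4:**
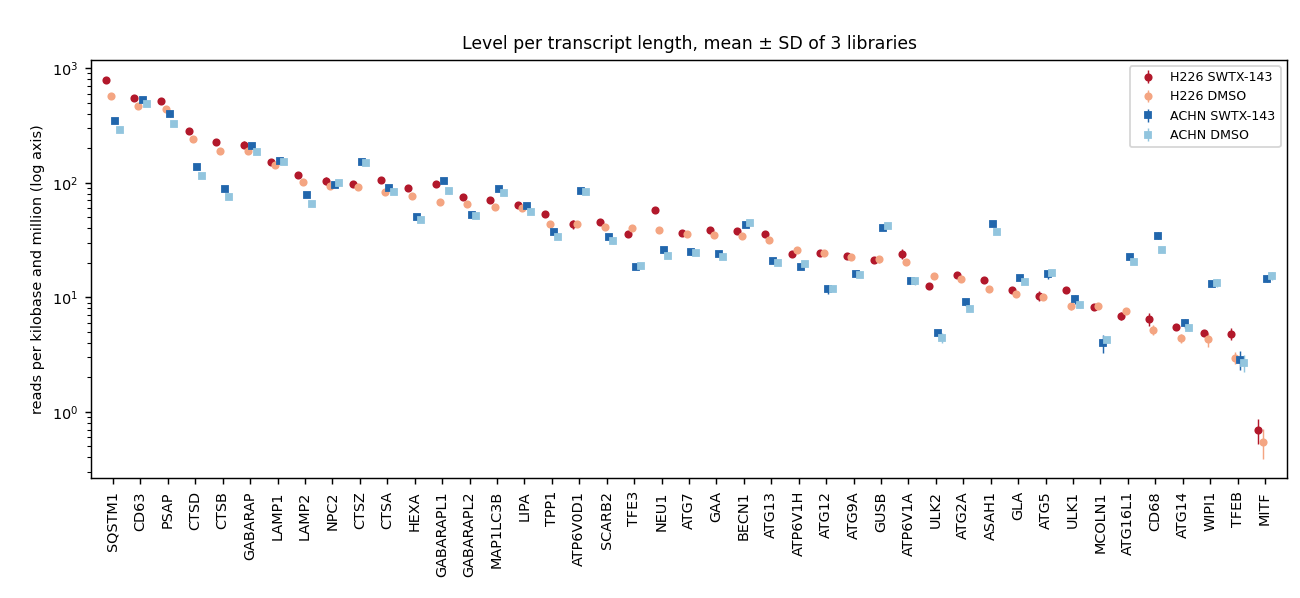
Level per transcript length (RPKM, log axis) of the 43 members, mean and SD of 3 libraries per group, ordered by their mean level in H226. SQSTM1, CD63 and PSAP stand at the top in both lines, TFEB is near the bottom, and MITF is below 1 RPKM in H226 and near 15 RPKM in ACHN.

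A wider list of 146 other genes of the same pathways was counted alongside. Of these 138 were tested in H226, where 45 rose (32.6%) and 13 fell (9.42%), with a median log2 fold change of 0.10. Of all genes 19.0% were called higher and 21.6% lower in H226. In ACHN 137 were tested, of which 19 rose (13.9%) and 5 fell (3.65%), with a median of 0.05, against 8.43% higher and 9.37% lower of all genes. Of 38 further lysosomal enzymes and cofactors, 18 rose (47.4%) and 0 fell in H226, and 5 rose (13.2%) and 0 fell in ACHN, against 19.0% and 8.43% of all genes called higher. GM2A, the activator protein that HEXA needs, had 26.0 ± 1.62 CPM with SWTX-143 and 17.3 ± 1.14 CPM with DMSO in H226, and 33.7 ± 2.34 and 27.1 ± 0.806 CPM in the same order in ACHN. It rose in both lines (log2 0.59 ± 0.09 and 0.31 ± 0.08), as did the protease CTSO (0.52 ± 0.08 in H226, 0.52 ± 0.09 in ACHN) and HGSNAT, an enzyme of heparan sulfate breakdown (0.15 ± 0.05 and 0.33 ± 0.07). IDS, iduronate sulfatase, rose in H226 (0.45 ± 0.06) and was at 0.10 ± 0.05 in ACHN, a difference that was itself called (0.34 ± 0.08, adjusted p = 5.87e-04 in edgeR's quasi-likelihood test).

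The 13 further autophagy receptors moved in both directions. In H226 4 rose (30.8%, against 19.0% of all genes) and 1 fell (7.69%, against 21.6%). In ACHN 5 rose (38.5%, against 8.43%) and 1 fell (7.69%, against 9.37%). NCOA4, the receptor that delivers ferritin for breakdown, had 581 ± 6.57 CPM with SWTX-143 and 455 ± 8.47 CPM with DMSO in H226, and 265 ± 7.69 and 228 ± 3.37 CPM in the same order in ACHN (log2 0.35 ± 0.04 and 0.21 ± 0.04, both called). OPTN rose in both lines as well (0.31 ± 0.04 and 0.20 ± 0.05), as did CALCOCO2 (0.24 ± 0.05 and 0.19 ± 0.05). NBR1, a relative of SQSTM1, rose in H226 (0.30 ± 0.04). TAX1BP1 ran against them in H226, with 517 ± 11.8 CPM with SWTX-143 and 699 ± 10.2 CPM with DMSO (log2 -0.43 ± 0.04), while in ACHN it had 209.6 ± 5.97 and 209 ± 7.13 CPM. Its difference between the lines was -0.44 ± 0.06 (adjusted p = 2.67e-09 in edgeR's quasi-likelihood test). In ACHN BNIP3, a mitophagy receptor, fell by a little (log2 -0.13 ± 0.05).

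Of 32 further autophagy machinery genes, 10 rose (31.2%, against 19.0% of all genes) and 4 fell (12.5%, against 21.6%) in H226. In ACHN 3 rose (9.38%, against 8.43% of all genes) and 1 fell (3.12%, against 9.37%). RB1CC1, the FIP200 subunit of the ULK complex, rose in both lines (0.25 ± 0.05 in H226, 0.20 ± 0.06 in ACHN), while ATG101, another subunit, fell in H226 (-0.41 ± 0.08) and was at -0.10 ± 0.06 in ACHN. RUBCN, which restrains autophagosome maturation, fell in H226 (-0.38 ± 0.07) and was at -0.20 ± 0.08 in ACHN, not called. EPG5, a tether of autophagosomes to lysosomes, fell in both lines, at 101 ± 14.0 CPM with SWTX-143 and 139 ± 9.37 CPM with DMSO in H226, and at 90.3 ± 2.79 and 145 ± 1.51 CPM in the same order in ACHN (log2 -0.45 ± 0.11 and -0.69 ± 0.05). WIPI2 rose in ACHN (0.18 ± 0.04) and was at 0.04 ± 0.05 in H226. VAMP8, which takes part in the fusion with lysosomes, rose in H226 (0.36 ± 0.08) and was at 0.16 ± 0.07 in ACHN, not called.

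Of the 19 genes of the mTORC1, Rag and folliculin group, which acts upstream of TFEB, 4 rose (21.1%) and 5 fell (26.3%) in H226, near the shares of all genes (19.0% and 21.6%), and 1 rose in ACHN (5.26%, against 8.43% of all genes). FLCN and FNIP1, which form the folliculin complex acting on Rag GTPases, rose in H226 (0.23 ± 0.07 and 0.20 ± 0.06). In ACHN they were at 0.13 ± 0.06 and -0.09 ± 0.06, not called. FNIP2 rose in ACHN (0.17 ± 0.06, adjusted p = 0.0440) and was at -0.15 ± 0.10 in H226, not called. The difference between the lines was called for FNIP1 (0.29 ± 0.08, adjusted p = 0.00564) and FNIP2 (-0.32 ± 0.12, 0.0478). These values are from edgeR's quasi-likelihood test. MTOR (-0.25 ± 0.07) and its partner RPTOR (-0.24 ± 0.06) fell in H226 and were at -0.09 ± 0.05 and -0.10 ± 0.05 in ACHN. Of 19 further genes of the lysosomal membrane and of sorting, 6 rose (31.6%, against 19.0% of all genes) and 2 fell (10.5%, against 21.6%) in H226. In ACHN 4 rose (21.1%, against 8.43%) and 2 fell (10.5%, against 9.37%). TPCN1, a lysosomal ion channel, rose in both lines (0.39 ± 0.07 and 0.21 ± 0.05), and SORT1, a sorting receptor, fell in both (-0.30 ± 0.04 and -0.21 ± 0.06). IGF2R, the large mannose 6-phosphate receptor, fell in ACHN (-0.20 ± 0.04). Of the other V-ATPase genes 3 of 17 rose (17.6%, against 19.0% of all genes) and 1 fell in H226, and 1 of 16 rose (6.25%, against 8.43%) and 1 fell in ACHN. ATP6V0A2, a subunit found mainly in Golgi and endosomes, was the one that fell in H226, with 28.6 ± 1.78 CPM with SWTX-143 and 43.2 ± 1.66 CPM with DMSO (log2 -0.59 ± 0.07).

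**Figure D5:**
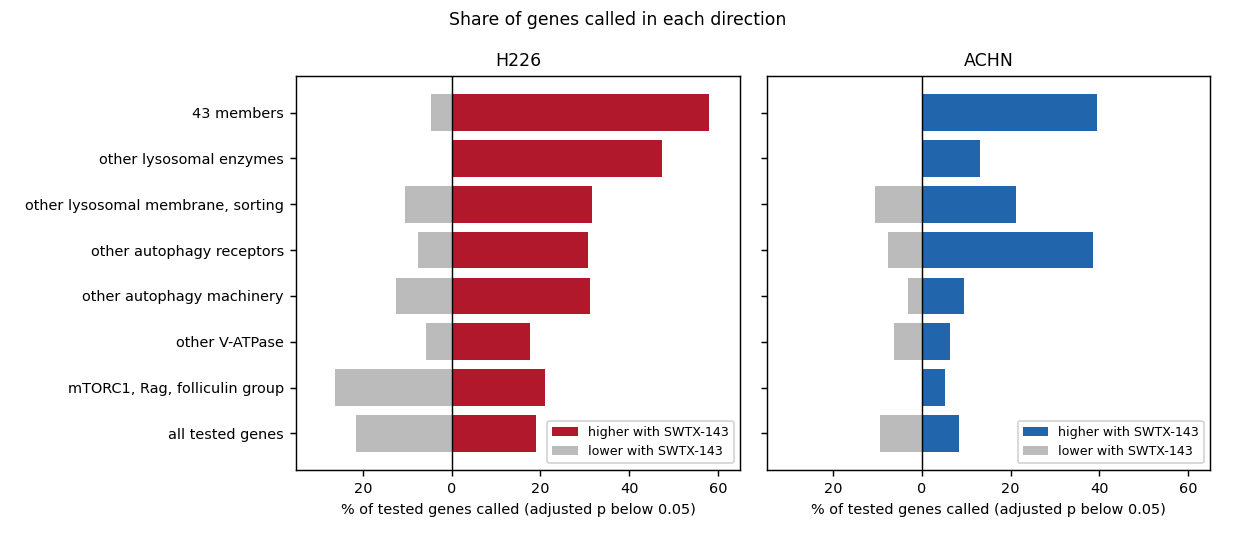
Percentage of tested genes called higher (coloured, right of 0) or lower (grey, left of 0) with SWTX-143 in H226 and ACHN, for the 43 members, the 6 further lists and all tested genes. Members called higher make up 58.1% in H226 and 39.5% in ACHN, against 19.0% and 8.43% of all tested genes, and the other lysosomal enzymes have no gene called lower in either line.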

How the data were processed

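Per the submitters' processing notes, reads passed through FastQC and cutadapt, and the notes also name STAR 2.6.1d and hg19 (GRCh37). How reads were assigned to genes, and whether strand was used, is not given in the sources used here. The authors deposited 1 table of raw counts per gene symbol for each line, with 3 libraries per group.

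edgeR 4.0.16 in R 4.3.3 was fitted per line on the counts as deposited, with filterByExpr, TMM scaling and robust quasi-likelihood F tests. Benjamini-Hochberg adjustment covered every tested gene, and a call is an adjusted p below 0.05. All 12 libraries entered 1 joint fit for the difference between lines and for the comparison of DMSO cells. Each SE is the log2 fold change over the root of its F value. CPM used the TMM effective library sizes of each line's own fit, not those of the joint fit. The biological coefficient of variation was 3.98% in H226 and 3.23% in ACHN. RPKM used the median length of coding transcripts in the basic set of GENCODE 29, so it depends on which isoforms the cells use. The fits were tested on simulated counts.

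The members and the lists were chosen with earlier results of these data known. All members are described. From each wider list the genes named were drawn from the 3 called genes with the smallest p in each direction per line. Exon overlaps were looked up in GENCODE 29 for members only. Alternatives were RLE, upper-quartile and library-size scaling, no filter, a mean of at least 5 CPM, DESeq2 1.42.0, non-robust dispersion, a replicate block, and leaving out each library.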

Additional observations from a re-analysis of the deposited data

Results flagged for a closer look

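For 8 genes the effect of SWTX-143 differed between the lines in the test of the difference itself (H226 minus ACHN, log2, edgeR's quasi-likelihood test with Benjamini-Hochberg adjustment over all genes). They make up 18.6% of the members, near the 15.6% of all genes called. The calls of TFEB, BECN1, ULK1 and ATG16L1 did not hold in every alternative fit. The difference was positive for 6. NEU1 differed by 0.40, with effects of 0.58 in H226 and 0.17 in ACHN. ULK1 differed by 0.32, with 0.48 and 0.15 in the same order, CTSA by 0.21 (0.35 and 0.13) and SQSTM1 by 0.19 (0.47 and 0.28). TFEB differed by 0.60 (0.69 and 0.08) and BECN1 by 0.20 (0.14 and -0.07). The difference was negative for ULK2, at -0.44 (-0.30 in H226 and 0.13 in ACHN), and for ATG16L1, at -0.27 (-0.14 and 0.13). ULK2, BECN1 and ATG16L1 have effects of opposite sign in the lines. The H226 effects of ULK2 and BECN1 were called, and no ACHN effect of the 3 was.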

How the results depend on the processing

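Over the alternatives, 21 to 29 members were called higher in H226 and 12 to 19 in ACHN, with 2 lower in H226 and 0 in ACHN in every fit. Leaving out 1 library gave 23 to 26 higher in H226 and 12 to 16 in ACHN. Of the calls, 23 of 27 in H226, 10 of 17 in ACHN and 4 of 8 between lines held in every alternative, and 14 alternatives were run per line. The members with a more positive effect in H226, 6 as reported, were 10 under upper-quartile scaling, 12 with a mean of at least 5 CPM, 4 with DESeq2 and 4 to 12 with 1 library left out. Those with a more negative effect, 2 as reported, were 1 under RLE, upper-quartile and library-size scaling, without a filter, with a mean of at least 5 CPM, with DESeq2 and without any 1 library. In the wider list the 13 lower in H226 became 8 by library size alone and 8 to 13 with 1 library left out. The 45 higher in H226 were 34 to 46 with 1 library left out and 31 to 56 in the other alternatives. The 19 higher in ACHN were 13 to 19 with 1 library left out. In the other alternatives they were 10 to 28, with the 10 from DESeq2. The 5 lower in ACHN became 3 under upper-quartile scaling, library size alone and DESeq2 and 2 to 8 with 1 library left out. The cause of these shifts was not tested. Between DMSO cells, LAMP1 (-0.0927) and CD63 (-0.0663) changed sign by library size alone. A sign change where neither fit made a call was counted as no change, and of 3693 values of single genes 3485 kept their side, 150 lost it, 56 gained it and 2 reversed.

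Same-numbered libraries did not deviate together (r from -0.0969 to 0.0578), so the replicate number was not treated as pairing. With it as a replicate block 26 members were higher and 2 lower in H226, 12 and 0 in ACHN, and 6 and 2 in the difference.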
